A study of Saccharomyces cerevisiae with 5 samples.

Results

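The 8 genes described here encode the enzymes that carry hexose to triose phosphate in the first stage of yeast glycolysis. They are HXK1, HXK2, GLK1, PGI1, PFK1, PFK2, FBA1 and TPI1, and were chosen by gene symbol in the platform annotation, out of 5583 genes on the arrays. They had 11 spots in the table of arrays 1 to 3 and 16 in the table of arrays 4 and 5. The 2 tables belong to different array platforms, with 7680 and 12800 spots. RNA from Saccharomyces cerevisiae that co-purified with zzYra1, the export adaptor Yra1 carrying a zz tag, was hybridised on spotted arrays with 2 channels against RNA recovered with the zz tag alone. Arrays 1, 2 and 5 carried the zzYra1 immunoprecipitate in channel 2, while arrays 3 and 4 carried it in channel 1. The titles of arrays 4 and 5 share a number code, whereas arrays 1 to 3 each carry a different one. What this code stands for is not stated. The sources used here do not give the strain, the growth conditions, the promoter of the tagged gene or whether the arrays stand for separate cultures. A p-value here therefore covers the spread among the arrays with a value, which may be technical. That spread was estimated partly across genes, and wholly so in some fits of few arrays.

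Glucose is trapped in the cell by phosphorylation, isomerised, phosphorylated again by phosphofructokinase, and split by aldolase into triose phosphates that are interconverted by an isomerase. In yeast growing on glucose several of these enzymes, though not all, are made from some of the more abundant mRNAs of the cell. Yra1 is an RNA-binding adaptor that joins messenger ribonucleoproteins to the export receptor Mex67. The question here is how the mRNAs of these enzymes divided between the zzYra1 and the zz immunoprecipitates.

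Each value below is a log2 ratio of the channels, averaged over the measured spots of a gene and centred so that the median gene of its array lies at 0. The labels do not name the numerator or say whether the ratios of arrays 3 and 4 had been turned. Correlation between arrays cannot name the numerator, and it did not settle the turning. Pearson's r across genes was -0.0422 to 0.0468 in the 6 pairs with opposite channels and -0.0816 to -0.0181 in the 4 pairs with the same channels. No pair of arrays thus agreed across genes, which limits every value and fit below. A sign therefore carries no statement on which immunoprecipitate was richer in an RNA. Results over all arrays are given under both readings. In the channel reading one channel is the numerator throughout and arrays 3 and 4 are given the opposite sign. In the other reading the values stand as deposited. The values of single arrays below carry the deposited sign, and their positions across arrays are given in both readings. A value was deposited for 44.3%, 51.1%, 97.6%, 23.9% and 19.8% of the genes on arrays 1 to 5. The standard deviation over spots was 2.51 log2 units on array 4 and 0.96 to 1.17 on the others. The quartiles of genes lay at -1.73 and 1.57 on array 4 and at -0.43 and 0.56 on array 1. YRA1 itself had a value on array 3 alone (0.63), and MEX67 on array 1 (-1.07) and array 3 (0.16).

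All 8 genes had a value on at least 3 arrays, and 4 of them (HXK1, HXK2, PFK2 and FBA1) on 4 arrays. None was measured on all 5. Over the whole series 41.1% of genes had a value on at least 3 arrays, and 13% on at least 4. By array, 4 of 8 members were measured on array 1, 6 on array 2, 8 on array 3, 4 on array 4 and 6 on array 5. Of the 9 genes of lower glycolysis, which carry triose phosphate to pyruvate, 5, 7, 9, 7 and 8 were measured on arrays 1 to 5. The shares of both parts of the pathway exceeded the shares of all genes given above on every array, by the widest margins on arrays 4 and 5. A gene counts as measured here if any of its spots had a value. By spot, upper glycolysis had values at 54.5%, 54.5%, 100%, 37.5% and 68.8% on arrays 1 to 5. For all spots that name a gene, the shares were 40.4%, 46.5%, 96.8%, 20.1% and 16.5%. That glycolytic genes were often measured was known from earlier results on these data when the members were chosen, and the shares are given without a test.

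**Figure D1:**
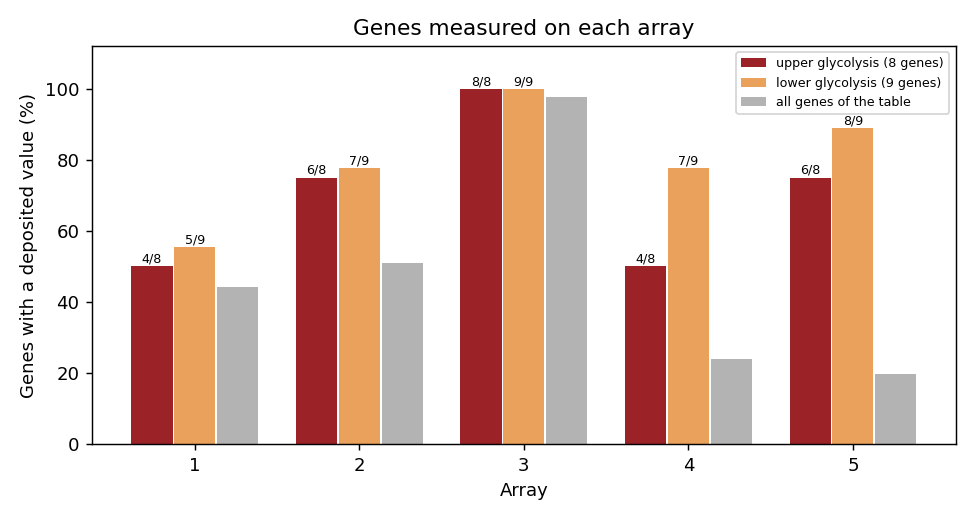
Share of genes with a deposited value on each array (percent, vertical axis), for the 8 upper glycolysis genes, the 9 lower glycolysis genes and all genes of the table. Labels give the number measured of the number on the table, and on array 5 the upper glycolysis bar stands at 6 of 8 while 19.8% of all genes had a value.

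The hexokinase and glucokinase genes encode the enzymes that phosphorylate glucose on entry. HXK1, the hexokinase isoform that is repressed during growth on glucose, had a log2 ratio of 0.24 on array 1, 0.55 on array 3, 2.47 on array 4 and -1.70 on array 5, and no value on array 2. These stood at percentiles 61.5, 73.1, 83.8 and 4.41 of the genes measured on the same array. As deposited, HXK1 was above the array median on 3 of 4 arrays, and its values spanned 4.17 log2 units. Of the 725 genes with at least 4 values, 85.4% spanned less, and the median span was 2.41. Array 4, the array with the widest spread, is among the values of HXK1, but not among those of every gene compared. In the channel reading HXK1 was above the median on 1 of 4 arrays and spanned 2.71, with 58.8% of genes spanning less and a median span of 2.39.

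HXK2, the main hexokinase on glucose, which is also a component of glucose repression, was at 0.00 on array 1, -0.07 on array 2, -0.99 on array 3 and -0.61 on array 5, with no value on array 4. Its span was 0.99 as deposited, with 7.45% of genes spanning less, and 1.60 in the channel reading, with 26.1% spanning less. Array 4, the widest, is not among its values. Its value on array 3 is the mean of spots at 0.70 and -2.68, which lie 3.38 apart, further than either span. HXK1 and HXK2 are related in sequence, and cross-hybridisation between them was not tested. On array 5 both were below the array median, HXK1 further than HXK2. Set against the measured spots around them there, the order turned round, with HXK1 at -0.20 and HXK2 at -1.08. On array 3 they lay on opposite sides of the array median.

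GLK1, glucokinase, which phosphorylates glucose but not fructose, was at 0.24 on array 1, 0.63 on array 2 and -0.12 on array 3. It had 2 spots in the table of arrays 4 and 5, and neither had a value on either array. It was the only member that both of these arrays left without a value. As deposited, 2 of its 3 values were above the array median, and in the channel reading all 3 were.

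PGI1, phosphoglucose isomerase, turns glucose 6-phosphate into fructose 6-phosphate. It was at -0.43 on array 2, 0.84 on array 3 and 0.94 on array 5, and had no value on arrays 1 and 4. Arrays 2 and 5, which carry the zzYra1 immunoprecipitate in the same channel, placed it on opposite sides of the array median.

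PFK1 and PFK2 encode the alpha and beta subunits of phosphofructokinase, the enzyme that commits fructose 6-phosphate to glycolysis and assembles from both. PFK1 was at 0.20 on array 3, 0.40 on array 4 and 1.03 on array 5, and had no value on arrays 1 and 2. It was above the array median on all 3 as deposited and on 1 of 3 in the channel reading. PFK2 was at 0.31 on array 1, -0.76 on array 2, 0.67 on array 3 and 3.83 on array 4, with no value on array 5. The value of 3.83, the furthest from 0 of any member on any array, came from 1 of its 2 spots on array 4 and stood at percentile 92.9 there. The channel reading turns it to -3.83. Set against the measured spots around it, the same spot lay at -0.95 as deposited. The span of PFK2 was 4.60 as deposited, with 88.7% of genes spanning less, and 4.14 in the channel reading, with 83.6% spanning less. On the 2 arrays where both subunit genes were measured, PFK2 lay above PFK1 as deposited, at 0.67 beside 0.20 on array 3 and at 3.83 beside 0.40 on array 4, and below it in the channel reading. On array 4 this order turned round when spots were set against their neighbours, with PFK2 at -0.95 beside PFK1 at 2.32 as deposited. The 2 spots of PFK2 on array 3 lay on either side of PFK1, at -0.17 and 1.51.

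FBA1, the aldolase that splits fructose 1,6-bisphosphate, was at -0.90 on array 2, -0.71 on array 3, 0.18 on array 4 and 0.59 on array 5. As deposited it was below the median on both of its arrays in the first table and above it on both arrays of the second, whereas in the channel reading (-0.90, 0.71, -0.18 and 0.59) it was split within each table. The span of FBA1, array 4 included, was 1.49 as deposited, with 19.6% of genes spanning less. In the channel reading it was 1.61, with 26.5% spanning less. TPI1, triose phosphate isomerase, was at -0.46 on array 2, 1.44 on array 3 and -0.17 on array 5. Its value on array 3 stood at percentile 95.7 as deposited. TPI1 was above the median on 1 of 3 arrays as deposited and on 0 of 3 in the channel reading.

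**Figure D2:**
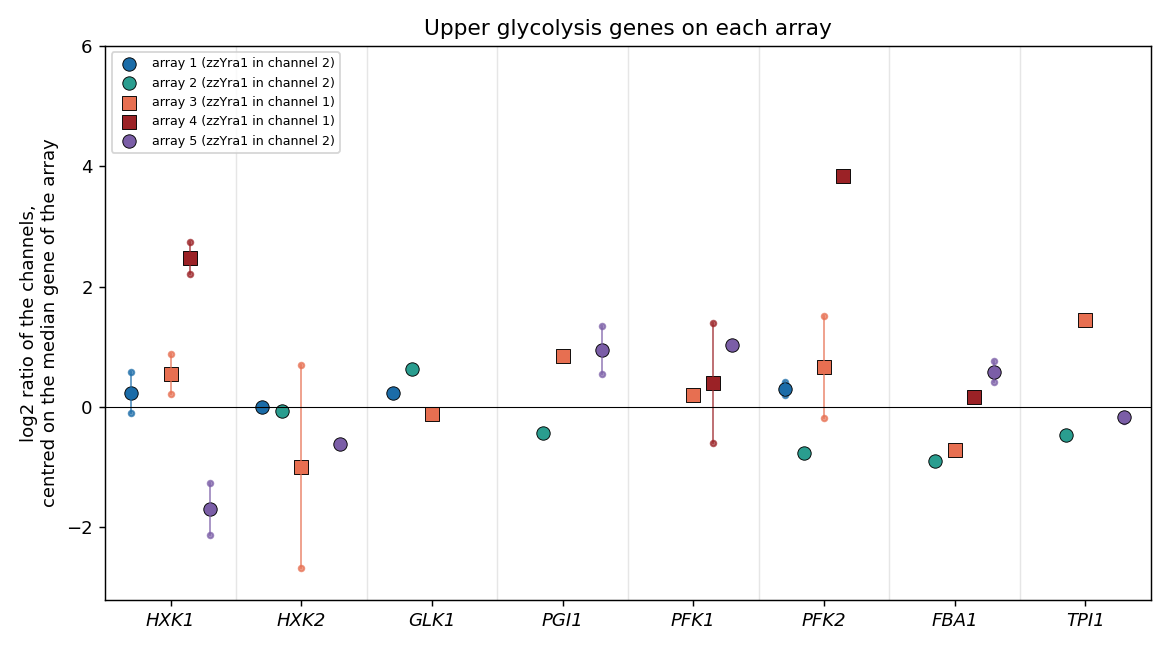
Centred log2 ratio of the channels (vertical axis) for each upper glycolysis gene in pathway order, with large symbols for the mean of a gene on an array and small joined points for its spots where it had more than 1 value. Circles are arrays 1, 2 and 5 and squares arrays 3 and 4, and the widest gap between spots is that of HXK2 on array 3.

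Of the 28 values of the 8 genes, 17 were above the median of their array, or 11 with arrays 3 and 4 given the opposite sign. In all, 15 of 28 fell between the quartiles of the genes on their array, 3 fell beyond percentile 10 or 90, and 2 beyond percentile 5 or 95, namely HXK1 on array 5 and TPI1 on array 3. The medians of the members were 0.24, -0.44, 0.37, 1.44 and 0.21 on arrays 1 to 5. Every member measured on array 1 (4 genes) and on array 4 (4 genes) was above the array median, while 1 of 6 was on array 2, 5 of 8 on array 3 and 3 of 6 on array 5. These counts are as deposited, and the channel reading turns those of arrays 3 and 4 round. Array 1 and array 2 carry the immunoprecipitates in the same channels, and the members leaned to opposite sides on them. The 3 genes measured on both, HXK2, GLK1 and PFK2, were at 0.00, 0.24 and 0.31 on array 1 and at -0.07, 0.63 and -0.76 on array 2.

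The spots of a gene agreed to a different degree in the 2 tables. On arrays 4 and 5 the 2 spots of a gene are adjacent, and over the 909 genes with both measured on array 4 the correlation was 0.802, and over 731 genes on array 5 it was 0.862. In the table of arrays 1 to 3, 1100 genes have 2 spots, none of them adjacent and with a median separation of 1755 spots. Pearson's r between them was 0.0342 over 225 genes on array 1, 0.106 over 258 on array 2 and -0.0256 over 1022 on array 3. All pairs share a slide, and the adjacent pairs of arrays 4 and 5 also share their position on it. The correlations are across genes. The members HXK1, HXK2 and PFK2 have such separated spots. The other 5 members have 1 spot each in that table, whose agreement cannot be checked. Whether the annotation names both spots of a gene correctly was not tested.

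HXK2 on array 3 had spots at 0.70 and -2.68, a difference of 3.38 that exceeded that of 97.8% of the pairs on this array, where the median difference was 1.03. Its mean of -0.99 therefore describes neither spot. On arrays 1 and 2 its value came from the first of these spots alone. HXK1 had spots at 0.89 and 0.21 on array 3 and at 0.59 and -0.11 on array 1. PFK2 had spots at 0.41 and 0.21 on array 1. These 3 differences were smaller than the median difference on their arrays.

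Among adjacent spots, those of HXK1 were at 2.21 and 2.73 on array 4 and at -2.13 and -1.27 on array 5. Both spots of a pair thus lay on the same side of the array median. Set against their neighbours, they were at 1.34 and 2.10 on array 4, but on either side of 0 on array 5, at -0.63 and 0.22. As deposited the 2 arrays placed HXK1 on opposite sides of the array median, and in the channel reading on the same side. PFK1 had spots at 1.01 and 1.05 on array 5, and at 1.40 and -0.59 on array 4. Its difference of 1.99 on array 4 was near the 90th percentile of pairs there. PGI1 had spots at 1.35 and 0.54 on array 5, FBA1 at 0.41 and 0.77, and TPI1 at -0.22 and -0.12. The remaining values of PFK2 and FBA1 on array 4 and of HXK2 on array 5 came from 1 of 2 spots. Over all arrays, 12 of the 25 spot pairs of members had both values, 4 of these 12 had opposite signs, 6 had 1 value and 7 had none.

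**Figure D3:**
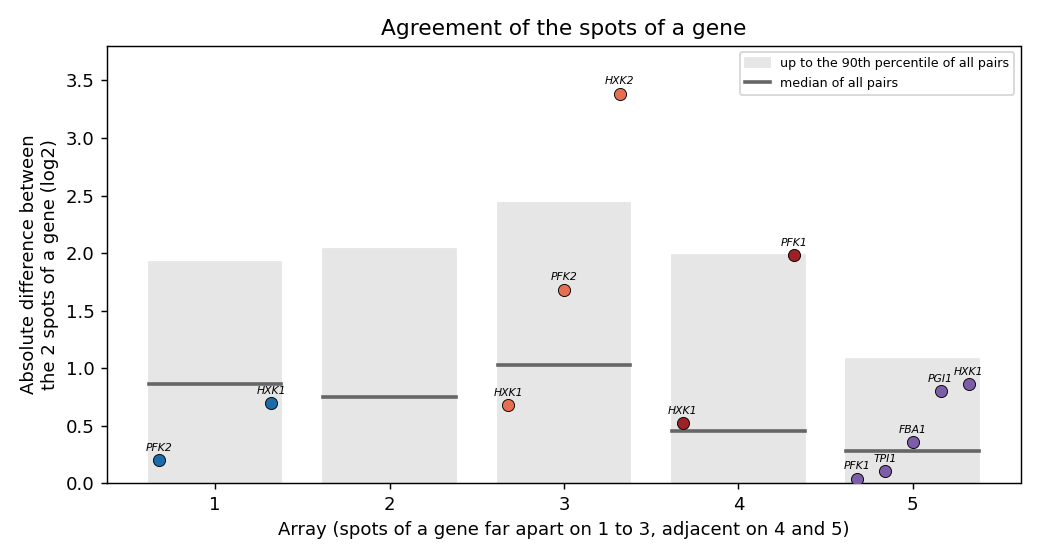
Absolute difference between the 2 spots of a gene in log2 units (vertical axis) for members with both spots measured on an array. Grey bands reach the 90th percentile of all genes with 2 measured spots and dark lines mark their median, and HXK2 on array 3 (3.38) lies far above its band while PFK1 on array 4 (1.99) lies at the edge of its band.

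The 4 members with values on at least 4 arrays were fitted together with all such genes in limma, with the orientation as a term. The 2 orientations count equally in each fitted value, however many arrays each holds, so it can differ from the mean over arrays. Without this term HXK2 was at 0.079 in the channel reading and at -0.42 in the other. HXK1, PFK2 and FBA1 kept their values. With the term, no member passed the adjusted threshold of 0.05 in either reading, and none of the 725 genes did (0% called in each). At an unadjusted p under 0.05 limma gave 2.62% and 3.45% of genes in the channel and other readings, and no member. In the channel reading PFK2 was at -1.24 ± 0.64 (log2, SE, 4 arrays; 95% interval -2.71 to 0.23; limma adjusted p = 0.905). HXK1 was at -1.12 ± 0.60 (interval -2.49 to 0.25), HXK2 at 0.38 ± 0.58 (-0.95 to 1.71) and FBA1 at 0.05 ± 0.54 (-1.18 to 1.29). Thus 2 genes lay on each side of 0 in this reading, beside 52.6% of all fitted genes above 0. Their median was -0.53, against 0.06 for all 725 genes.

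In the other reading PFK2 was at 1.01 ± 0.64 (interval -0.46 to 2.48; limma adjusted p = 0.903). HXK1 was at 0.39 ± 0.60 (-0.98 to 1.76), FBA1 at -0.21 ± 0.54 (-1.45 to 1.03) and HXK2 at -0.61 ± 0.58 (-1.94 to 0.73). The median of the 4 was 0.09, against 0.07 for all genes, of which 54.1% were above 0. No fitted member had the same sign on every array it was measured on, in either reading, as 10.6% and 10.1% of all fitted genes did in the channel and the other reading. The value of HXK2 on array 1, just above 0, kept it from doing so in the other reading. For HXK1, HXK2 and PFK2, the values on arrays 3 and 4 did not overlap those on arrays 1, 2 and 5. The same held for 36.6% of all fitted genes. HXK2 has a single value there, on array 3.

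The values of PFK2 and HXK1 leaned on single arrays. Without array 3, PFK2 was at -2.03 in the channel reading and passed (limma adjusted p = 0.0301), as 1 of 68 genes called of 602. Array 4 is then the only array of its orientation, so its value of PFK2 adds nothing to the residual spread. In that fit HXK1, PFK2 and FBA1 shared an SE of 0.67, which is a spread pooled over genes and not their own. With the arrays also scaled to equal spread, which was added after seeing the data, no gene passed without array 3, and PFK2 was then at -0.81. Without array 4 it was at -0.45. In the other reading PFK2 was at 1.80 without array 3 (limma adjusted p = 0.0513, with 80 of 602 genes called and no member), at 0.22 without array 4, at 0.39 with all arrays scaled and at 0.057 with spots set against their neighbours. In the channel reading, scaling put it at -0.63 and the comparison with neighbours at 0.055. HXK1 in the channel reading was at -0.64 without array 4 and at -0.63 without array 5. In the other reading it was at -0.090 without array 4 and -0.093 without array 1, and at 0.87 and 0.88 without array 3 and without array 5. HXK2 changed sign with the spot used: with the first measured spot of each gene its channel-reading value was -0.46 and its value in the other reading 0.24. With the last measured spot, also added after seeing the data, these were 1.24 and -1.46.

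**Figure D4:**
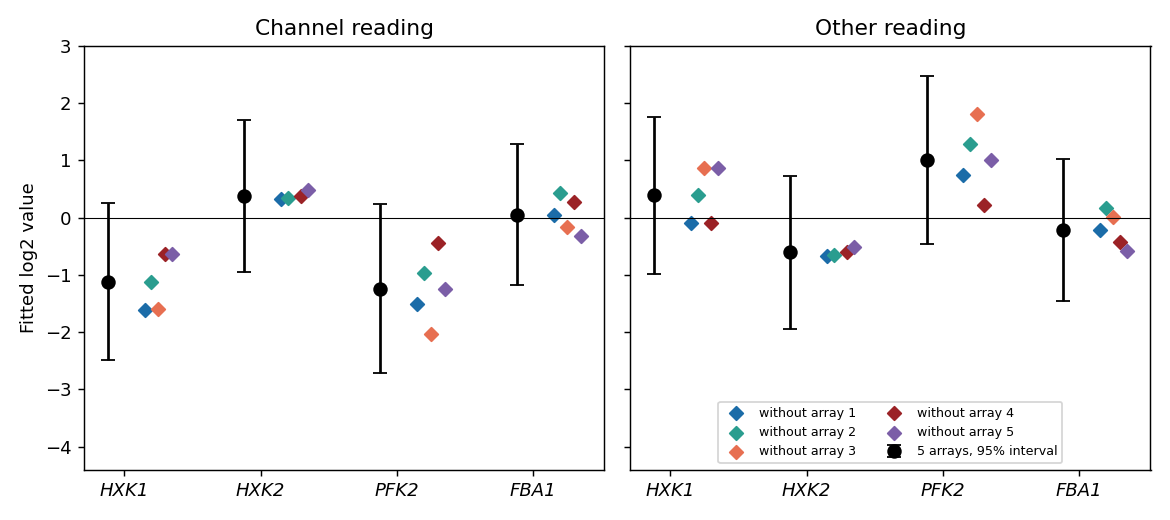
Fitted log2 values of the 4 members with values on at least 4 arrays (vertical axis), in the channel reading (left) and the other reading (right). Black points and bars are the fit of 5 arrays with its 95% interval, which crosses 0 for every gene, and diamonds are the fits without 1 array, among which PFK2 without array 3 reaches -2.03 in the channel reading.

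With genes measured on at least 3 arrays, all 8 members could be tested, and none passed among 2295 genes (0% called in both readings). The unadjusted threshold gave 2% and 1.74% of genes in the channel and other readings, and no member. TPI1 was at -0.88 ± 0.59 and 0.56 ± 0.59 in these readings, PFK1 at 0.36 ± 0.59 and 0.66 ± 0.59, PGI1 at -0.29 ± 0.64 and 0.55 ± 0.64, and GLK1 at 0.28 ± 0.59 and 0.16 ± 0.59 (log2, SE, 3 arrays each). Intervals for these 4 genes spanned close to 3 log2 units, as for GLK1 in the channel reading, from -1.19 to 1.75.

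Taken by table, HXK2, GLK1 and PFK2 had values on each of arrays 1 to 3. Their channel-reading values were 0.48 ± 0.48, 0.28 ± 0.49 and -0.45 ± 0.50, with limma adjusted p of 0.931, 0.950 and 0.931, where 0.078% of 1282 genes were called in that reading and 0% in the other. Under an unadjusted p of 0.05 were 5.77% and 5.07% of these genes, and no member. HXK1, PFK1 and FBA1 had values on both arrays 4 and 5, where no gene of 546 was called (0%). An unadjusted limma p under 0.05 was reached by 2.56% and 6.23% of them in the channel and other readings, with no member among them. HXK1 was at -2.09 ± 0.99 in the channel reading there (limma adjusted p = 0.950) and at 0.39 ± 1.16 in the other. Among arrays of one orientation, HXK2 was at -0.22 ± 0.36 over arrays 1, 2 and 5, where 0% of 281 genes were called and 2.14% were under an unadjusted p of 0.05. Over arrays 3 and 4, PFK2 was at 2.25, HXK1 at 1.51, PFK1 at 0.30 and FBA1 at -0.27, each ± 1.36. This common SE is a spread pooled over genes. The adjusted p was 0.966 or more in limma, where 0% of 1300 genes were called and 5% were under an unadjusted p of 0.05.

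Other genes of the pathway did not pass either. In the fit of 5 arrays 0 of 8 lower glycolysis genes passed in either direction, with 2 and 6 above 0 in the channel and other readings and medians of -0.26 and 0.50. CDC19, pyruvate kinase, was furthest from 0 among them by moderated t, at -1.32 ± 0.80 and 2.18 ± 0.80 in the 2 readings. Of the fermentation genes 0 of 7 passed, with ADH1, the main alcohol dehydrogenase, at 1.01 ± 0.65 in the channel reading and PDC6, a minor pyruvate decarboxylase isoform, at -0.80 ± 0.60 in the other. Hexose transporters bring the substrate of the hexokinases into the cell. The arrays held 17 of them, of which 4 could be fitted and 0 passed, with HXT2, a high-affinity transporter, at 1.21 ± 0.58 and -1.27 ± 0.58 in the channel and other readings. The limma adjusted p of these named genes was 0.903 or more.

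Genes that work against or beside the upper pathway were fitted in small numbers, where 13% of all genes could be fitted. Of 7 genes of gluconeogenesis and fructose bisphosphate regulation, 1 was fitted: FBP26, fructose-2,6-bisphosphatase, at -0.35 ± 0.59 and -0.21 ± 0.59 in the channel and other readings. Of 16 genes of the branches that leave hexose and triose phosphate, 1 was fitted: GND2, of the pentose phosphate pathway, at -0.51 ± 0.57 and 0.56 ± 0.57. Of 13 regulators of glycolytic genes 0 were fitted. The hexokinase-like genes had 1 member on the tables, which was measured on 2 arrays.

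Among the 146 genes measured on all 5 arrays, the profiles closest to the members' medians were those of VHT1, a biotin transporter gene, RNR2, of ribonucleotide reductase, and SPT5, a transcription elongation factor gene. Their root mean square differences from the medians over the 5 arrays were 0.22, 0.35 and 0.38 log2 units, against a median of 1.19 over the 146 genes. VHT1 was at -0.05, -0.10, 0.34, 1.24 and 0.11 on arrays 1 to 5. Because different members make up the median on each array, this likeness is to a summary and to no single gene.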

How the data were processed

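The authors deposited log10 ratios of the 2 channels of spotted arrays, 1 column per array in 2 tables; the scanner, background correction, dyes and reason for missing values were not given in the sources used here. The log10 scale follows from the deposited numbers: of 400 drawn per array, 31.25% to 94.5% matched a quotient of whole numbers with denominators up to 3000 (tolerance 1e-09), against at most 2.5% for base 2 or natural logarithms. Values were multiplied by 3.32, averaged per gene and centred on each array's median gene, with no loess or quantile step. Symbols were updated to the R64 gene table, which matched 5578 of 5583 and 5534 of 5539 genes. No intensities were used, so signal over background is not known. Precision is limited by there being 5 arrays.

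Genes with a value on at least 4 arrays were fitted in limma 3.58.1 (R 4.3.3) with an intercept (other reading) and the orientation (channel reading), and p-values adjusted by Benjamini-Hochberg over all genes. The fit of 5 arrays pooled both array platforms without a term for them. The procedure was also run on simulated gene values with independent noise and planted changes larger than any member's value in the fit of 5 arrays. That run held no disagreeing spots or position effects, so it does not cover them. The members, lists and tests were chosen with earlier results of these data known. The genes named are the members, YRA1, MEX67, the gene with the largest absolute moderated t of each list in each reading, and the 3 nearest profiles. No member had 5 values, so nearest genes of single members are not given. Alternatives covered centring, scaling, slide neighbours, spot choice, filters, array weights, the orientation term and leaving out arrays.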

Additional observations from a re-analysis of the deposited data

Results flagged for a closer look

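One array stood far from the rest in 1 of 12 sets of values over 4 or 5 arrays; chance alone flags about 1 set in 20, or 0.6 here. The standard deviation over spots was 2.51 log2 units on array 4, beside 0.96 to 1.17 on the others. The values of PFK2 (3.83) and HXK1 (2.47) furthest from 0 come from this array, with the deposited sign. With scaled arrays PFK2 was at -0.63 and HXK1 at -0.64 in the channel reading, and at 0.39 and 0.085 in the other. Without array 4, PFK2 was at -0.45 and HXK1 at -0.64 in the channel reading, and at 0.22 and -0.090 in the other. Set against neighbours, PFK2 was at 0.055 and 0.057 in the channel and other readings, and HXK1 at -0.60 and 0.63. With array weights PFK2 stayed at -1.24 and 1.01. Why array 4 spread more widely was not tested.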

How the results depend on the processing

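No paired analysis was possible because the arrays form 1 group. The count of members past the threshold was 0 under each alternative that could test a member, except without array 3 in the channel reading. Leaving out each array in turn gave 0 to 1 members (channel reading) and 0 each time (other reading); over all genes it gave 0 to 68 and 0 to 80 calls, against 0 with all arrays. Scaling the arrays gave 0 calls in the first table, against 1, and 1 in the second, against 0, none of them a member. With every spot of a gene required, 1 member and 382 genes had values on at least 4 arrays, against 4 members and 725 genes. Of 124 single-gene values under alternatives, 14 changed sign. HXK2 did so with the first measured spot (-0.46 and 0.24 in the channel and other readings). Over arrays 1, 2 and 5 alone HXK2 was at -0.22, a change of sign from the channel reading only. With each spot set against its neighbours PFK2 was at 0.055 in the channel reading, and FBA1 at -0.12 and 0.10 in the channel and other readings. FBA1 was at -0.034 with array weights and at -0.17 without array 3 after scaling, both in the channel reading. Leaving out single arrays moved FBA1 between -0.32 and 0.43 (channel reading) and between -0.58 and 0.16 (other), HXK1 between -0.093 and 0.88 (other), and PFK2 between -2.03 and -0.45 in the channel reading and between 0.22 and 1.80 in the other. Causes were not tested. The fit with a value on all 5 arrays held no member. A block for the code shared by the titles of arrays 4 and 5 could not be estimated from 1 pair. Averaging these 2 arrays, added after seeing the data, gave 0 calls. Without intensities, how dim the spots of the members were is unknown.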

Other observations

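Before centring, the deposited log10 ratios of the members followed the level of their array. On array 1 they lay between 0.812 and 0.904, beside an array median of 0.800, and on array 2 between -0.614 and -0.152, beside -0.343. On arrays 3, 4 and 5 they lay between -0.250 and 0.481, between 0.511 and 1.61 and between -0.0519 and 0.769, beside medians of 0.0482, 0.478 and 0.478. The 4 members measured on array 1 thus spanned 0.0918 log10 units, and the 8 on array 3 spanned 0.731.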
